A study of Mus musculus with 2 samples.

Results

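ST2-expressing Treg cells are regulatory T cells that carry ST2, the receptor of the cytokine IL-33, which the gene Il1rl1 encodes. Here they were the CD4 T cells in which both Foxp3 and Il1rl1 had at least 1 unique molecular identifier (UMI, 1 counted transcript molecule). Cells were thus chosen by their measured Foxp3 and Il1rl1 UMIs. The levels of those 2 genes are not tested, while the shares of cells per tissue are counts of cells with their UMIs. 158 of 12789 cells met this rule, 95 of 3879 in library 1 and 63 of 8910 in library 2. They were a subset of 877 cells with Foxp3 UMIs, and the other 719 such cells had no Il1rl1 UMI and served as the comparison.

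The cells came from the spleen and from 3 fat depots, brown (BAT), subcutaneous (SAT) and visceral (VAT), of male wild-type C57BL/6J mice at 8 weeks of age. CD4 T cells were sorted by 2 rounds on T cell receptor beta, CD3 and CD4, and dead cells were excluded by DAPI. Fat was broken up mechanically and with collagenase II, spleen only mechanically, and red cells were lysed in all samples. Each of 2 experiments gave 1 droplet library of 8 hashed samples, with 2 samples of each tissue, so that every tissue had 4 hashed samples, numbered 1 and 2 in experiment 1 and 3 and 4 in experiment 2. The labels name no treatment and no genetic change, and do not say which visceral depot was taken or whether same-numbered tissues share an animal.

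Foxp3 is the transcription factor that defines regulatory T cells, which hold immune responses in check. IL-33 is released by stromal cells of fat and other tissues, and ST2 pairs with the coreceptor IL1RAP to signal through MYD88, IRAK kinases and TRAF6 to NF-kB. In visceral fat, ST2-bearing Treg cells are known for the transcription factors GATA3 and PPARG and for amphiregulin, a growth factor of tissue repair that Areg encodes.

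Depth differed between libraries and classes. The libraries had 4485 and 12239 barcodes with 29153747 and 43879975 gene UMIs, and the kept cells had medians of 6121 and 4316.5 UMIs. Il1rl1+ Foxp3+ cells had medians of 7239 and 5152 UMIs, above 6120 and 4307.5 in the other Foxp3+ cells. The libraries shared 8 barcodes among kept cells, and 0 of them were Il1rl1+ Foxp3+ cells. Hashtags placed 129 of the 158 cells in 1 sample, 19 carried hashtags of more than 1 sample (8.42% and 17.5% of them in the 2 libraries, against 12.8% and 16.5% of the other Foxp3+ cells) and 10 were unresolved. The hashtags of SAT replicate 1 and BAT replicate 4 were weak, with positive cells only 2.14 and 2.43 robust standard deviations above background.

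Marker genes outside the rule were found more often with Il1rl1, with or without Foxp3, in cells not thinned to equal depth. Of Areg, Pparg and Gata3, the last was found most often, in 117 of the 158 Il1rl1+ Foxp3+ cells, against 38 for Areg and 31 for Pparg. At least 1 UMI of Areg, Pparg or Gata3 was found in 86.3% and 76.2% of Il1rl1+ Foxp3+ cells of libraries 1 and 2, in 82.4% and 69.6% of Il1rl1+ cells without Foxp3 UMIs, in 53.2% and 33.9% of the other Foxp3+ cells (62.8% and 42.5% of those with Cxcr3 UMIs), and in 38.1% and 22.1% of cells with neither Foxp3 nor Il1rl1. Foxp3 itself, which chose the cells, stood at 319.9 and 308.9 CPM (UMIs of a gene per 1000000 gene UMIs) in Il1rl1+ Foxp3+ cells and at 327.3 and 342.7 CPM in the others. Only 94 of the 158 cells had 2 or more Il1rl1 UMIs and 64 rested on a single one. As a description around that threshold in library 1, Klrg1 was detected in 24.5% of Foxp3+ cells with 0 Il1rl1 UMIs, in 86.2% with 1 and in 84.8% with 2 or more, and in library 2 in 15.6%, 60% and 60.7%. Areg was less even, at 4.91%, 27.6% and 28.8% in library 1 and at 3.30%, 8.57% and 28.6% in library 2.

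Within hashed samples, Il1rl1+ Foxp3+ cells had higher levels of Areg, Gata3, the receptors Klrg1, Ltb4r1, Ccr2 and Cxcr6, the chemokine Cxcl2 and the calcium-binding proteins S100a4 and S100a6 than the other Foxp3+ cells. They had lower levels of Ccr7, S1pr1, Dapl1, Bcl2 and Cxcr3. UMIs were summed per hashed sample and class in 12 hashed samples with at least 3 cells of each class (4 VAT, 4 SAT, 2 BAT, 2 spleen), and compared with edgeR's quasi-likelihood test with the hashed sample as a block. Of 9216 genes, 258 (2.8%) passed a Benjamini-Hochberg adjusted p of 0.05, 166 (1.8%) of them higher and 92 (0.998%) lower. The other Foxp3+ cells include cells whose Il1rl1 transcripts were missed, and in sums of cells fewer positive cells and less RNA per cell cannot be told apart. The block takes out the level of each hashed sample. The p-values thus rest on how the class difference varies over hashed samples, which the labels call biological duplicates, with the spread of each gene moderated over all genes. They do not count the samples that go the same way. Scaling moved the balance of calls: with scaling factors taken over all genes, most of them with few UMIs, the median of all genes moved from 0.03 to −0.21 log2 units and the calls were 93 higher and 241 lower. After every cell was thinned to 2500 UMIs, 70 genes were higher and 37 lower, and 97 of these 107 were among the 258.

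Genes were also counted by list. The lists were chosen with earlier results of these data known, so the counts and medians per list describe them and do not test them. Transcription factors of tissue Treg cells came first. Of 15 tested, 6 were higher and 0 lower, with a median log2 difference of 0.54 against 0.03 over all genes. With factors over all genes 4 were higher and 1 lower.

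Gata3, a master regulator of type 2 immunity, had 84.7 CPM in the lowest, 306 in the median and 620 in the highest of 12 sums of Il1rl1+ Foxp3+ cells, against 53.1, 151 and 272 CPM in the other Foxp3+ cells. It was higher in 11 of the 12 hashed samples, and the ranges overlapped. The log2 difference was 1.22 ± 0.17 (SE, edgeR adjusted p = 7.98e-09). For each gene of this comparison given with its lowest, median and highest level the 2 classes overlapped across samples, and the test compares them within samples.

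Pparg, the adipogenic nuclear receptor that marks visceral fat Treg cells, had few UMIs. Its levels were 0, 18.2 and 61.6 CPM (lowest, median, highest) in Il1rl1+ Foxp3+ cells and 0, 2.00 and 29.7 CPM in the others. The difference of 1.66 ± 0.51 passed narrowly (edgeR adjusted p = 0.0424) with 7 of 12 samples higher, and it missed the threshold in 10 of 15 other settings, with differences from 1.27 to 2.44. By cells, 31 of 158 Il1rl1+ Foxp3+ cells and 18 of 719 others had a Pparg UMI.

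Tox2, an HMG-box factor, had 0, 39.8 and 123 CPM in Il1rl1+ Foxp3+ cells against 0, 4.39 and 15.1 CPM, a difference of 3.31 ± 0.48 (edgeR adjusted p = 2.22e-08). It was detected in 38 of 158 and 18 of 719 cells. Rora, a nuclear receptor, was higher by 1.3 ± 0.19 in 10 of 12 samples, and Nfil3, a basic leucine zipper factor, by 1.61 ± 0.39 in 8. Maf passed at 0.54 ± 0.15 and fell short in 10 of 18 other settings. Batf, a factor needed by tissue Treg cells, did not pass, at 0.63 ± 0.24 (edgeR adjusted p = 0.162), nor did Irf4 at 0.38 ± 0.40 and Prdm1 at 0.38 ± 0.32.

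Receptors of tissue Treg cells had 10 genes higher and 0 lower of 19 tested, with a median of 0.80, and 8 higher and 0 lower with factors over all genes. Klrg1, an inhibitory receptor for cadherins, had 108, 437 and 689 CPM in Il1rl1+ Foxp3+ cells and 41.9, 111 and 255 CPM in the others. It was higher in 12 of 12 hashed samples, by 1.78 ± 0.17 (edgeR adjusted p = 1.55e-18). Ltb4r1, the high-affinity receptor of leukotriene B4, had 0, 188 and 420 CPM against 0, 43.0 and 89.2 CPM. Its difference was 2.23 ± 0.22, with 10 of 12 samples higher (edgeR adjusted p = 2.48e-16).

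Chemokine receptors were among the genes that rose. Ccr2, the receptor of monocyte chemoattractant proteins, was higher in 12 of 12 samples, at 104, 420 and 630 CPM against 7.54, 151 and 376 CPM (1.35 ± 0.17, edgeR adjusted p = 2.27e-11). Cxcr6, the CXCL16 receptor, was higher by 2.05 ± 0.26, Ccr1 by 2.50 ± 0.50 and Ccr3 by 1.39 ± 0.33. Ccr1 rested on 38 Il1rl1+ Foxp3+ cells and 9 others, and without library 2 its difference was 1.85 and not called. Itgae, the alpha chain of the E-cadherin receptor CD103, was higher by 2.19 ± 0.43 and lost its call without library 1 (1.27). Cd44, the hyaluronan receptor, was higher by 1.18 ± 0.21. Ccr8, a receptor of skin and tumour Treg cells, did not pass, at 0.57 ± 0.48. Icos and Cd69 passed narrowly (0.56 and 0.55), and Icos missed the threshold in 16 of 18 other settings.

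Thinning every cell to 2500 UMIs left these contrasts visible per cell. Klrg1 was then detected in 58.9% and 37.9% of Il1rl1+ Foxp3+ cells of the 2 libraries and in 15.5% and 12.4% of the other Foxp3+ cells. Ltb4r1 was detected in 37.9% and 32.8% against 7.17% and 8.99%. Gata3 was detected in 58.9% and 50% against 27.9% and 21.4%. In cells with neither Foxp3 nor Il1rl1 the shares were 3.58% and 2.54% for Klrg1, 0.507% and 0.712% for Ltb4r1, and 18.4% and 13.9% for Gata3. Thinning left out 5 Il1rl1+ Foxp3+ cells and 76 others, all in library 2.

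**Figure D1:**
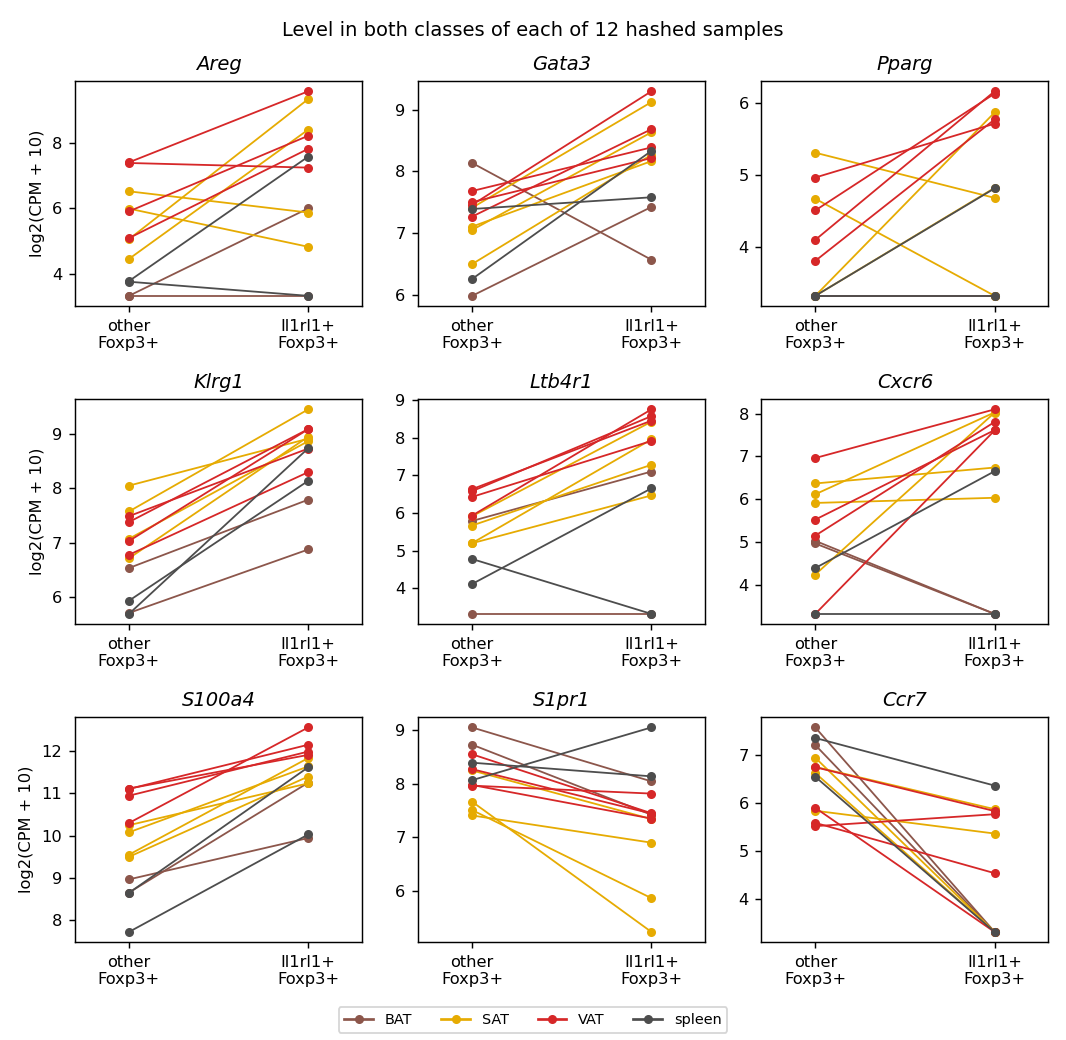
Levels of 9 genes as log2(CPM + 10) in the Foxp3+ cells without Il1rl1 UMIs (left) and with them (right) of 12 hashed samples, with a line joining the values of 1 sample and colours for tissues. Klrg1 and S100a4 rise in 12 of 12 samples, Areg in 7, and S1pr1 and Ccr7 fall in 11.

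Secreted and repair products had 9 genes higher and 0 lower of 15 tested, with a median of 1.13, and the same counts with factors over all genes. Areg had 0, 161 and 754 CPM in Il1rl1+ Foxp3+ cells against 0, 23.6 and 159 CPM in the others. The log2 difference was 2.30 ± 0.26 (edgeR adjusted p = 2.86e-13), although only 7 of 12 samples were higher and 4 were lower. Areg was a gene of few cells: 38 of 158 Il1rl1+ Foxp3+ cells (24.1%) and 28 of 719 others (3.89%) had a UMI. After thinning the shares were 20% and 12.1% in the 2 libraries against 3.77% and 1.32%.

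Cxcl2, a neutrophil chemoattractant, had 0, 95 and 1888 CPM against 0, 25.6 and 513 CPM, with 8 samples higher and 4 lower (2.36 ± 0.27, edgeR adjusted p = 7.97e-13). A Cxcl2 UMI was found in 31 of 158 and 20 of 719 cells, and 1 cell held 190 of 619 UMIs. With DESeq2 the difference was 1.71 and not called. Pcsk1, a protease that cuts prohormones, had 0, 45.8 and 194 CPM against 0, 0 and 8.92 CPM, and was found in 25 of 158 and 5 of 719 cells (4.10 ± 0.53, edgeR adjusted p = 2.39e-10).

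The stretch of 120 bases before the annotated start of these 3 genes is shown because they have the largest log2 differences among the 4 secretory genes with the smallest p, and each stretch holds a motif of a signal-driven factor. Since the motif was part of the choice, its presence in all 3 is not a result. Whether these motifs act in these cells was not tested. The sequences are from RefSeq on GRCm38.p6, plus strand, 5′ to 3′. Capitals mark the cAMP response element (CRE) TGACGTCA in Areg (chr5:91139479-91139598) and Pcsk1 (chr13:75089706-75089825), and 2 matches to the kappaB motif (GGG, 2 free bases, TT, 1 free base, CC) in Cxcl2 (chr5:90903751-90903870).
Areg: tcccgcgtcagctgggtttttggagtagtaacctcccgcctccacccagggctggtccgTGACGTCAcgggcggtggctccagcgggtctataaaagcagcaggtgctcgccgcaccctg
Cxcl2: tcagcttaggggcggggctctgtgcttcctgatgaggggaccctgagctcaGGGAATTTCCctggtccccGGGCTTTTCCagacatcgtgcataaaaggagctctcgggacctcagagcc
Pcsk1: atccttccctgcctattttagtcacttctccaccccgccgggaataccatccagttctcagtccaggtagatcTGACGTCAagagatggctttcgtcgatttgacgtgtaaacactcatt
The CRE was found in 1.88% of 27025 RefSeq promoter windows of 300 bases and kappaB in 4.71%, searched on both strands. Of the 166 genes called higher, 129 had such a window, and 3.88% of those held the CRE, 11.6% kappaB and 12.4% the AP-1 motif TGANTCA, which 7.93% of all windows held. The 27025 windows were not limited to genes tested here, so the shares of called and of all windows are not like for like. Whether the called genes hold more of a motif than other tested genes was not tested. Motifs can overlap each other, and a match is a stretch of letters only. In the GENCODE annotation of the same build, Areg lies at chr5:91139599-91148432, Cxcl2 at chr5:90903871-90905938, Pcsk1 at chr13:75089826-75134861, and Il1rl1 at chr1:40429570-40465415, all on the plus strand. Foxp3 lies at chrX:7573644-7595245, Pparg at chr6:115360951-115490399 and Ltb4r1 at chr14:55765962-55768494 on the plus strand, and Gata3 at chr2:9857078-9890034 and Klrg1 at chr6:122270596-122282882 on the minus strand, all of them protein-coding genes.

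Other secreted products were less even. Gzmb, the cytotoxic protease granzyme B, was higher by 1.75 ± 0.25, but by 0.83 and not called without library 2. Penk, the precursor of enkephalins, was higher by 2.68 ± 0.43 on 7 Il1rl1+ Foxp3+ cells, and Cxcl3 by 2.45 ± 0.55 on 9. In fat samples alone the Cxcl3 difference was 0.74 and not called. Fgl2, a soluble suppressor of T cells, was higher by 1.11 ± 0.19 in 10 of 12 samples. Il10, the suppressive cytokine, did not pass, at 1.13 ± 0.41 (edgeR adjusted p = 0.136), with 4 samples higher and 7 lower.

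S100, annexin and galectin genes, many of them linked to migration and membrane repair, had 10 genes higher and 0 lower of 14 tested, with a median of 0.95. With factors over all genes 10 were higher and 1, Anxa2, was lower. S100a4 had 974.5, 3144 and 5999 CPM against 201.7, 905 and 2199 CPM, and was higher in 12 of 12 samples (1.66 ± 0.10, edgeR adjusted p = 4.58e-35). S100a6 was higher by 1.26 ± 0.09 in 11 samples, Vim by 1.21 ± 0.10 in 12, Crip1 by 1.13 ± 0.09 in 12 and S100a10 by 0.91 ± 0.09 in 12. Anxa1, a phospholipid-binding protein with anti-inflammatory action, was higher by 2.05 ± 0.28 in 9. After thinning, S100a4 was found in 89.5% and 94.8% of Il1rl1+ Foxp3+ cells and in 41.1% and 41.8% of the others.

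Core Treg genes divided: 6 of 18 were higher and 1 lower with the scaling used here (median 0.36), but 0 were higher and 3 lower with factors over all genes, under which Ikzf2, Ctla4, Il2ra and Capg kept positive differences below the threshold. Ikzf2, the Treg factor Helios, had 526, 1108 and 2708 CPM against 468, 660 and 993 CPM, with 8 samples higher (0.64 ± 0.12, edgeR adjusted p = 3.97e-05, and 0.30 with factors over all genes). Il2ra, the high-affinity IL-2 receptor chain, differed by 0.90 ± 0.20 and Ctla4, an inhibitory receptor, by 0.73 ± 0.14. Izumo1r, folate receptor 4, was lower (−0.88 ± 0.20) in 9 of 12 samples, under each scaling tried. Costimulatory and inhibitory receptors also turned with the scaling, with 4 higher and 0 lower of 14 here and 0 higher and 3 lower with factors over all genes.

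Components of IL-33 receptor signalling showed 0 genes called in either direction of 14 tested, with a median of −0.09, and 0 under each other scaling and with DESeq2. Over all genes 2.8% were called, so 0 of 14 does not set the list apart. In simulated sums, 7.5% of genes with a true log2 difference of 1, 2.5% at −1 and 77.5% at 2 were called. The 0 calls therefore do not show that the list was unchanged. At an unadjusted p of 0.05 edgeR called 1, and DESeq2 also 1, Il1rap. Il1rap, the coreceptor, differed by 2.21 ± 0.70 (edgeR adjusted p = 0.0566), with UMIs in 13 of 158 and 21 of 719 cells. Irak3 differed by 0.98 ± 0.70, Irak2 by 0.55 ± 0.41, Ikbkb by −0.42 ± 0.26, Myd88 by −0.48 ± 0.44 and Irak4 by −0.30 ± 0.43. NF-kB subunits and feedback genes had 4 higher and 0 lower of 14, and 3 higher with factors over all genes. The 4 were Nfkbia (0.85 ± 0.12), Tnfaip3 (1.02 ± 0.18), Nfkbiz (1.05 ± 0.23) and Traf1 (0.61 ± 0.15), the first of which encodes the inhibitor IkB alpha and the second the deubiquitinase A20.

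Immediate early and dissociation genes, which respond to signals and also to tissue digestion, had 11 higher and 0 lower of 17 (7 and 0 with factors over all genes), with a median of 0.75. Fos had 0, 974 and 1889 CPM against 3.49, 283 and 964 CPM and was higher in 11 of 12 samples, 2.79-fold (edgeR adjusted p = 2.58e-18), with a log2 difference of 0.95 without library 2. Both classes of each sample went through the same digestion, and the part of handling in these differences was not tested. Fosb was higher by 1.36 ± 0.18 and Junb by 0.75 ± 0.10. The heat shock gene Hspa1a was higher by 1.62 ± 0.25, with 7 samples higher and 4 lower.

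In the IL-2 and IL-7 receptor pathway 3 genes were higher and 1 lower of 12, and 2 and 2 with factors over all genes. Il7r was higher by 0.89 ± 0.14 in 10 of 12 samples and Socs1, a feedback inhibitor of cytokine signalling, by 1.07 ± 0.24 in 8. Bcl2, the survival factor, had 0, 20.2 and 181 CPM against 35.7, 105 and 271 CPM and was lower in 12 of 12 samples (−1.59 ± 0.30, edgeR adjusted p = 3.35e-05), with −2.58 without library 1. Of 14 lipid genes 2 were higher, Plin2, a lipid droplet coat protein (1.12 ± 0.27), and Dgat1, which makes triglycerides (1.36 ± 0.33), and 1, Lpl, was lower with 65.7% of its UMIs in 1 cell. The 12 cell cycle genes had a median of 0.99 against 0.03 over all genes, and 0.67 with factors over all genes. Of them 1 was called, and 0 with factors over all genes. It was Birc5 at 1.52 ± 0.45, which was −0.50 without library 1 and 3.96 without library 2. Stmn1 differed by 0.96 ± 0.31 (edgeR adjusted p = 0.0605). Type 2 genes had 1 called of 4, Gata3, and Th17 genes 0 of 3, which with 2.8% called over all genes does not set the Th17 list apart.

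Genes of naive and recirculating T cells had 0 higher and 5 lower of 13, with a median of −0.81, and 0 and 10 with factors over all genes. Ccr7, the receptor that guides cells into lymph nodes, had 0, 6.67 and 72.5 CPM against 36, 93.3 and 181 CPM, and was lower in 11 of 12 samples (−1.3 ± 0.31, edgeR adjusted p = 0.00303). Dapl1 was lower in 10 samples (−2.90 ± 0.53), S1pr1, the egress receptor, in 11 (−0.72 ± 0.17) and Tcf7 in 9 (−0.81 ± 0.23). Ribosomal protein genes, singled out after their values were seen, had 29 lower and 0 higher of 81 tested, with a median of −0.26, and 71 lower with factors over all genes.

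Of 10 genes of the Th1 program 2 were lower and 0 higher, and 5 and 0 with factors over all genes. Cxcr3, the receptor of interferon-induced chemokines, had 0, 73.5 and 141 CPM against 18.3, 178 and 271 CPM and was lower in 10 of 12 samples (−1.19 ± 0.23). It was not called without library 2 (−0.89) or in sums per library, which mix tissues (−0.46). Ccl4 was lower (−4.42 ± 0.69) on 4 UMIs in Il1rl1+ Foxp3+ cells, and Serpina3g, a serine protease inhibitor outside the list, was found in 7 of 158 and 107 of 719 cells (−3.50 ± 0.55).

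**Figure D2:**
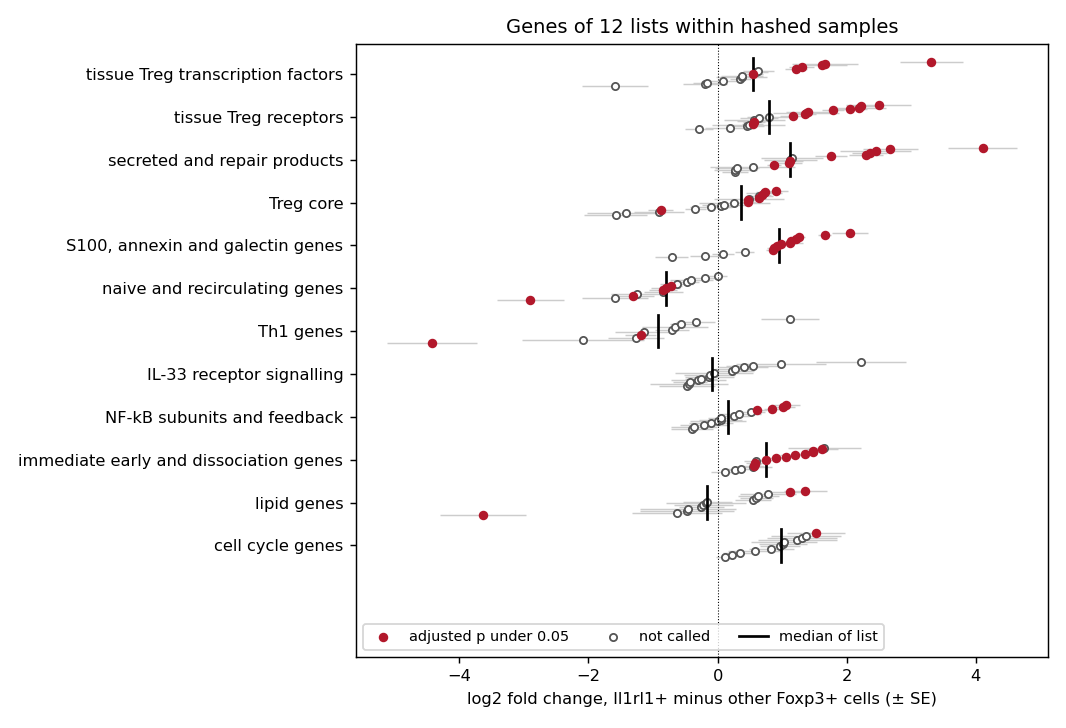
Log2 difference between Foxp3+ cells with and without Il1rl1 UMIs for the genes of 12 lists, as points with SE bars, filled where the edgeR adjusted p was under 0.05, and the median of each list as a bar. Receptors and secreted products lie mostly to the right (medians 0.80 and 1.13), naive and Th1 genes to the left (−0.81 and −0.92), and IL-33 receptor signalling around 0. The lists were chosen with earlier results of these data known.

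Among the called genes with the largest differences in the same direction after thinning in both libraries, Plxna1, a semaphorin coreceptor, was found in 24 of 158 and 18 of 719 cells with at most 2 UMIs in a cell (3.16 ± 0.63), and AA467197 in 30 and 15 cells (2.53 ± 0.43). Cyp11a1, the first enzyme of steroid synthesis, was higher by 2.51 on 8 Il1rl1+ Foxp3+ cells and 6 others, and Gm13522 by 3.39 on 10 and 2. On the lower side, Ms4a4c was found in 4 of 158 and 71 of 719 cells (−2.6), Mphosph9 in 9 and 74 (−2.32), Frat2 in 7 and 62 (−2.31) and Plac8 in 2 and 26 (−3.74). Plac8 had a positive difference with DESeq2 (0.426).

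Some calls came from single cells. In 36 of the 258 called genes 1 cell held at least 50% of the UMIs (9 higher, 27 lower), which leaves 157 higher and 65 lower. Macrophage genes such as Mrc1 (58 of 60 UMIs in 1 cell), Cd209f, Cbr2, Pf4, Slc40a1 and Ccl12 were among the 9, and Col1a2 (653 of 655 UMIs in 1 cell), Dcn, Sparc and Serpinh1, genes of fibroblasts, among the 27. At least 3 UMIs of markers of B, myeloid or stromal cells that under 5% of kept cells express were found in 12 of 158 Il1rl1+ Foxp3+ cells and in 25 of 719 others. Without them 194 genes were higher and 79 lower, 209 of them shared with the 258.

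Summed myeloid markers stood at 740 and 680 CPM in Il1rl1+ Foxp3+ cells of the 2 libraries against 1406 and 552 CPM, and 0 of 7 tested were called. B cell markers stood at 449 and 297 CPM against 373 and 345, with 0 of 4 called. Stromal markers stood at 9.83 and 0 CPM against 1114 and 1.26, with 4 of 5 lower, and Dcn, Pdgfra, Il33, Adipoq and Cfd were at 0 in Il1rl1+ Foxp3+ cells of both libraries. Mast cell markers stood at 5.46 and 0 CPM and ILC2 and NK markers at 49.1 and 83.6 CPM against 62.8 and 29.4. Mast cells and ILC2 are other carriers of ST2. Erythroid and CD8 or gamma-delta T cell markers had 0 calls of 3 and of 2. Over all genes 2.8% were called, so 0 calls in lists this small do not set them apart. At an unadjusted p of 0.05 edgeR had 2 of the myeloid markers, C1qa and H2-Aa, 1 erythroid marker, Hbb-bs, and Tyrobp, and DESeq2 had 0 of these lists. T cell markers had 0 higher and 2 lower of 7, Trbc1 (−0.43 ± 0.13) and Trbc2 (−0.35 ± 0.09).

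Cells with Il1rl1 but without Foxp3 UMIs were the nearest population outside the Treg cells, and were compared in the same way in 8 hashed samples (108 Il1rl1+ Foxp3+ cells and 123 Foxp3-zero cells, 200 in all samples). A Foxp3-zero cell may be a Treg cell whose transcripts were missed. The Treg genes Ikzf2, Ctla4, Icos, Tnfrsf4 and Tnfrsf9 were higher in Il1rl1+ Foxp3+ cells, Bcl2, Id2, Cd40lg and Csf2 were lower, and Gata3, Pparg, Ltb4r1, Ccr2 and Cxcr6 were not called. Of 8023 genes 210 (2.62%) passed, 106 (1.32%) higher and 104 (1.3%) lower, and 63 of them (5 higher, 58 lower) had at least 50% of their UMIs in 1 cell. The lower genes with the largest differences were of that kind, such as Mmp12 (1301 of 1302 UMIs in 1 cell), Retnla (954 of 1146) and Mmp19 (347 of 354). The count was 36 with DESeq2, 52 without library 1 and 77 without library 2.

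Ikzf2 had 595, 1029 and 1473 CPM in Il1rl1+ Foxp3+ cells and 7.77, 213 and 514 CPM in Il1rl1+ Foxp3-zero cells, so that the groups did not overlap (2.76 ± 0.35, edgeR adjusted p = 4.41e-06). Ctla4 had 327, 785 and 971 CPM against 0, 112 and 301 CPM, also without overlap (2.93 ± 0.40). Tnfrsf9, the costimulatory receptor 4-1BB, was higher in 8 of 8 samples (3.75 ± 0.50), as were Icos (2.38 ± 0.32) and Tnfrsf4 (1.97 ± 0.28). Treg core genes had 7 higher and 0 lower of 14, and costimulatory and inhibitory receptors 7 and 0 of 11. Cxcl2 had 0, 362 and 1888 CPM against 0, 8.08 and 37.7 CPM (5.43 ± 0.60), and most of the 1888 CPM came from a single cell. Klrg1 was higher in 7 of 8 samples (1.5 ± 0.30, edgeR adjusted p = 0.00249).

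Genes lower in Il1rl1+ Foxp3+ cells than in Il1rl1+ Foxp3-zero cells included Bcl2 (0, 6.77 and 41.1 CPM against 88.5, 130 and 313 CPM, without overlap, −2.85 ± 0.39, edgeR adjusted p = 8.27e-06). Id2, an inhibitor of E proteins, was lower in 8 of 8 samples (−1.25 ± 0.22). Cd40lg, the helper ligand for B cells, was lower (−1.96 ± 0.34), and so were the cytokine genes Il2 (−3.30 ± 0.69) and Csf2 (−5.54 ± 0.82), the last with 41.1% of its UMIs in 1 cell.

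Gata3, Pparg and Areg did not pass the test between the 2 Il1rl1+ populations, and Areg had the largest difference of these. Gata3 differed by 0.04 ± 0.24, Pparg by −0.62 ± 0.41 and Areg by 1.57 ± 0.52 (edgeR adjusted p = 0.115, higher in 7 of 8 samples). Ltb4r1 differed by −0.17 ± 0.26, Ccr2 by 0.11 ± 0.26 and Cxcr6 by −0.27 ± 0.26. By cells, Pparg was found in 22.1% and 15.9% of Il1rl1+ Foxp3+ cells and in 29.4% and 20.9% of Il1rl1+ Foxp3-zero cells, while Areg was found in 28.4% and 17.5% against 7.06% and 6.09%.

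**Figure D3:**
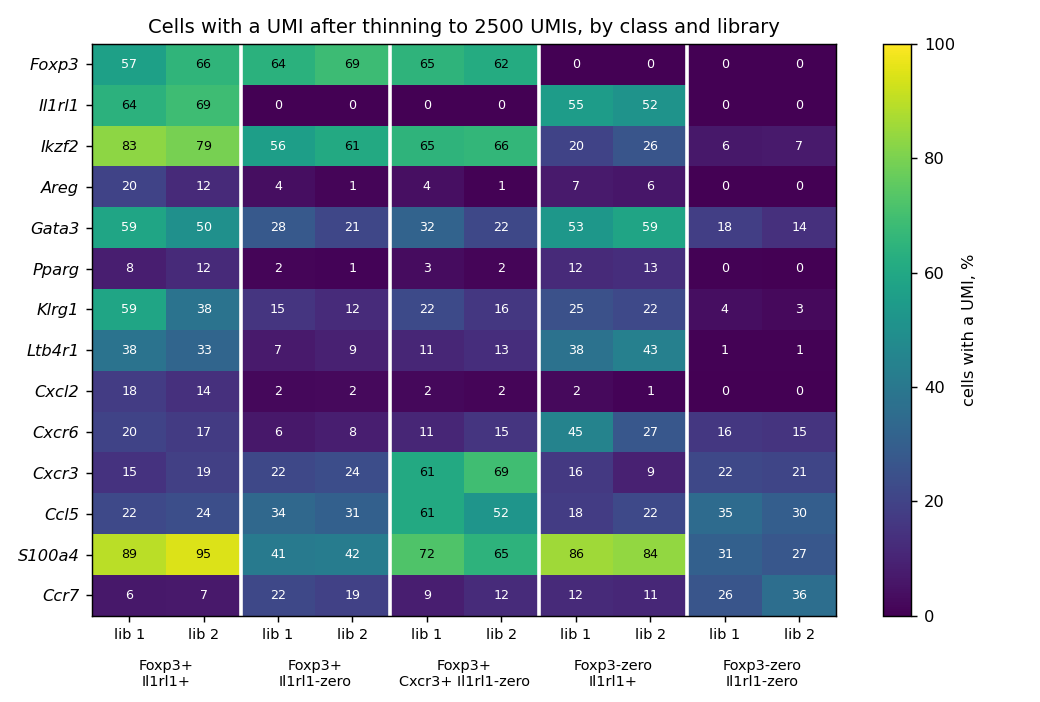
Percent of cells with a UMI of 14 genes after thinning to 2500 UMIs, in 5 classes of cells and 2 libraries, as colour and number. Foxp3, Il1rl1 and Cxcr3 chose classes. Gata3 and Ltb4r1 are found in both Il1rl1+ classes, while Areg, Klrg1 and Cxcl2 are found most often in cells with Foxp3 and Il1rl1.

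Foxp3+ cells with Cxcr3 and without Il1rl1 UMIs (240 cells) were a further Treg subset for comparison, Th1-type Treg cells by their receptor. In 12 hashed samples (124 against 156 cells) 137 of 7899 genes (1.73%) passed, 103 (1.3%) higher in Il1rl1+ Foxp3+ cells and 34 (0.43%) lower. Il1rl1+ cells had higher Areg (2.41 ± 0.28), Gata3 (1.26 ± 0.20), Klrg1 (1.82 ± 0.20), Ltb4r1 (2.40 ± 0.28) and Il7r (1.32 ± 0.17), while Pparg was not called (1.83 ± 0.63, edgeR adjusted p = 0.139). Of 8 tested genes of the Th1 list, 4 were higher in Cxcr3+ cells and 0 in Il1rl1+ cells, with a median of −1.34 against 0.01 over all genes. The chemokine Ccl5 had 82.2, 241 and 4849 CPM in Il1rl1+ cells and 75.9, 816 and 2118 CPM in Cxcr3+ cells, and was lower in 9 of 12 samples (−1.34 ± 0.15). Nkg7, a cytotoxic granule protein, differed by −1.21 ± 0.25, Ifng by −1.76 ± 0.44, and Tbx21, the Th1 master factor, by −1.66 ± 0.49 (edgeR adjusted p = 0.0452). Gzmb, outside that list, was higher in Il1rl1+ cells in 10 of 12 samples (1.90 ± 0.26), but by 0.96 and not called without library 2. This comparison shares its Il1rl1+ Foxp3+ cells with the first one, and the Cxcr3+ cells were part of the control cells there. Of the largest differences, Cxcl2 (5.59 ± 0.36), Pcsk1 (4.93 ± 0.72) and Tox2 (4.36 ± 0.67) were higher and Serpina3g was lower (−4.04 ± 0.56), while Cxcl9, Cx3cr1, Ifi205 and Lpl were lower with most UMIs in 1 cell. For Cxcl2 the Il1rl1+ cells include the single cell with the most of its UMIs. DESeq2 called 48 genes, and 53 were called without library 1.

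Among the 158 Il1rl1+ Foxp3+ cells the marker genes were found in differing numbers of cells. Gata3 was found in 117 and Klrg1 in 119, both together in 98. Areg was found in 38 and Pparg in 31, while 7 cells had both and 96 had neither. Areg and Cxcl2 UMIs were found together in 15 cells, of 38 and 31, and Pparg and Tox2 together in 17, of 31 and 38. Detection depends on depth, so these counts describe transcripts caught, not separate cell states. Whether any pair was found together more or less often than independent detection gives was not tested.

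Il1rl1+ cells made up more of the Foxp3+ cells in fat than in spleen. In VAT the shares of the 4 hashed samples were 45.3%, 50%, 23.2% and 25.6% (36% ± 13.6, SD, n = 4). In SAT they were 17.0%, 45.2%, 12.5% and 11.9% (21.6% ± 15.9), in BAT 13.8%, 6.25%, 14.3% and 13.3% (11.9% ± 3.8), and in spleen 7.41%, 10.2%, 4.92% and 0% (5.63% ± 4.33). The spleen sample with 0 of 54 cells allows a share of up to 5.56% by counting error alone. VAT samples lay above every spleen sample, and SAT replicate 2 was apart from the other 3 SAT samples. The 17.0% of SAT replicate 1 rests on a weak hashtag, and stricter calls kept only 68 of its 580 cells.

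The mean share was 17.6 points higher in fat than in spleen (exact permutation test within experiments, 2-sided, p = 0.0344), 20.8 points in experiment 1 and 14.3 in experiment 2. The test pools the depots and takes 12 fat and 4 spleen samples as independent. The labels do not say whether tissues share an animal, and no pairing was used. Without spleen replicate 3 the difference was 17.3 points (exact p = 0.107) and without spleen replicate 4 it was 15.7 points (exact p = 0.117). VAT exceeded spleen by 30.4 points, BAT by 24.1 and SAT by 14.4, each at the smallest p that 4 against 4 samples in 2 experiments can give, 0.0556 in an exact permutation test (0.0833 adjusted over 6 pairs). SAT exceeded spleen by 16 points at the same p, by 8.15 without SAT replicate 2 and by 22.5 with stricter hashtag calls. BAT and spleen differed by 6.28 points (exact p = 0.167) and SAT and BAT by 9.71 (exact p = 0.389), the latter with −1.63 points in experiment 2 and 1.87 without SAT replicate 2. The excess of VAT over SAT was 22.2 points without SAT replicate 2 and 8.31 with stricter hashtag calls. After thinning to 2500 UMIs, with membership called anew, the shares were 22.5% ± 8.07 in VAT, 16.9% ± 12.6 in SAT, 11.3% ± 2.19 in BAT and 3.32% ± 2.46 in spleen (n = 4), and fat exceeded spleen by 14.1 points (exact permutation p = 0.00850). VAT then exceeded spleen by 19.2 points, BAT by 11.2 and SAT by 5.57 (exact permutation p = 0.6 for VAT against SAT, adjusted over 6 pairs). At 1300 UMIs fat exceeded spleen by 10.1 points. Tests of this share left out samples with under 10 Foxp3+ cells. At 2500 UMIs this was BAT replicate 3 (9 cells), which the mean shares above include. At 1300 UMIs these were BAT replicates 1, 2 and 3 (7, 6 and 8 cells), each with a share of 0%.

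As a share of all CD4 T cells, Il1rl1+ Foxp3+ cells were 3.63% ± 2.30 in VAT, 1.81% ± 1.68 in SAT, 0.473% ± 0.270 in BAT and 0.535% ± 0.502 in spleen (n = 4). Fat exceeded spleen by 1.44 points (exact permutation p = 0.135), and by 0.741 and 0.294 after thinning to 2500 and 1300 UMIs. Among Foxp3-zero cells, Il1rl1 was found in 4.19% ± 1.57 in VAT, 1.78% ± 1.14 in SAT, 0.453% in BAT and 0.368% ± 0.224 in spleen, a fat excess of 1.77 points (exact permutation p = 0.0689).

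**Figure D4:**
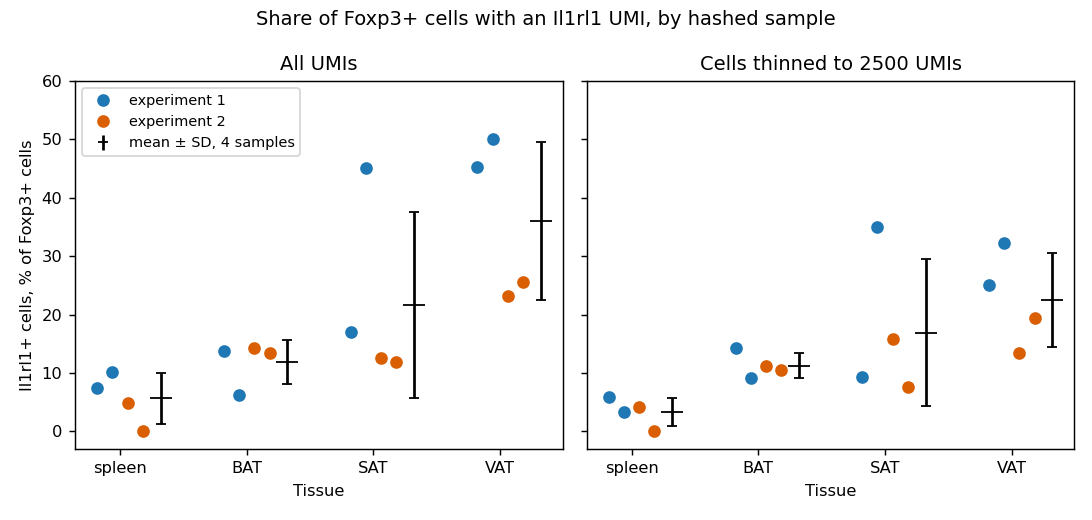
Percent of Foxp3+ cells with an Il1rl1 UMI in each of 16 hashed samples by tissue, with all UMIs (left) and after thinning to 2500 UMIs (right), with mean and SD of 4 samples. All VAT samples lie above all spleen samples in both panels, and 1 SAT sample at 45.2% lies above the other 3.

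The Il1rl1+ Foxp3+ cells themselves were then compared between tissues in 1 fit of 12 sums, with 8 VAT and SAT samples of 5 to 24 cells each. Of 5696 genes 31 (0.544%) differed between VAT and SAT, 25 (0.439%) higher in VAT and 6 (0.105%) lower, but in 17 of the 25 a single cell held at least 50% of the UMIs, macrophage genes such as Pf4, C1qa and Mrc1 among them. Without cells carrying markers of other cell types 17 genes were called, 15 of them among the 31. DESeq2 called 2.

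S100a6 was higher in VAT, with 4164, 7065, 6270 and 7868 CPM against 2335, 3175, 3826 and 3246 CPM in SAT, so that the groups did not overlap (1.03 ± 0.16), and it passed in each of 4 other settings. Klf6, a zinc finger factor, had 707, 761, 580 and 883 CPM in VAT against 329, 256, 291 and 361 CPM in SAT, also without overlap (1.3 ± 0.27). Cxcl2 had 830, 1888, 141 and 822 CPM in VAT against 15.7, 48.7, 0 and 583 CPM in SAT (2.89 ± 0.46), and here 1 SAT sample overlapped. Most of the 1888 CPM came from a single cell. Il10 had 123, 193, 7.44 and 20.5 CPM against 0, 6.09, 96.9 and 0 CPM (3.26 ± 0.79), with both high VAT values in experiment 1.

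The 6 genes lower in VAT included Psmb9, Ifi27l2a, Igtp, Iigp1 and AW112010, which are named because the count is small, after their values were seen. Psmb9, a subunit of the immunoproteasome, had 169.8, 167, 208 and 123 CPM in VAT against 392, 347, 436 and 499 CPM in SAT, without overlap (−1.21 ± 0.29), and 218 and 729 CPM in spleen. Its call was lost in each of 4 other settings. Ifi27l2a had 1028, 1461, 1592 and 1150.4 CPM in VAT against 1927, 1779, 1308 and 5577 CPM in SAT (−0.92 ± 0.20), so that the lowest SAT sample lay within the VAT range, and its call was lost in 2 of 4 other settings. In Ifi27l2a and in Igtp (439 CPM, next 111) 1 SAT sample stood apart from the other 3. Areg itself varied within tissues, with 141, 754, 216 and 288 CPM in VAT, 329, 18.3, 48.4 and 638 CPM in SAT, 0 and 53.9 CPM in BAT and 181 and 0 CPM in spleen, and was not called between VAT and SAT.

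**Figure D5:**
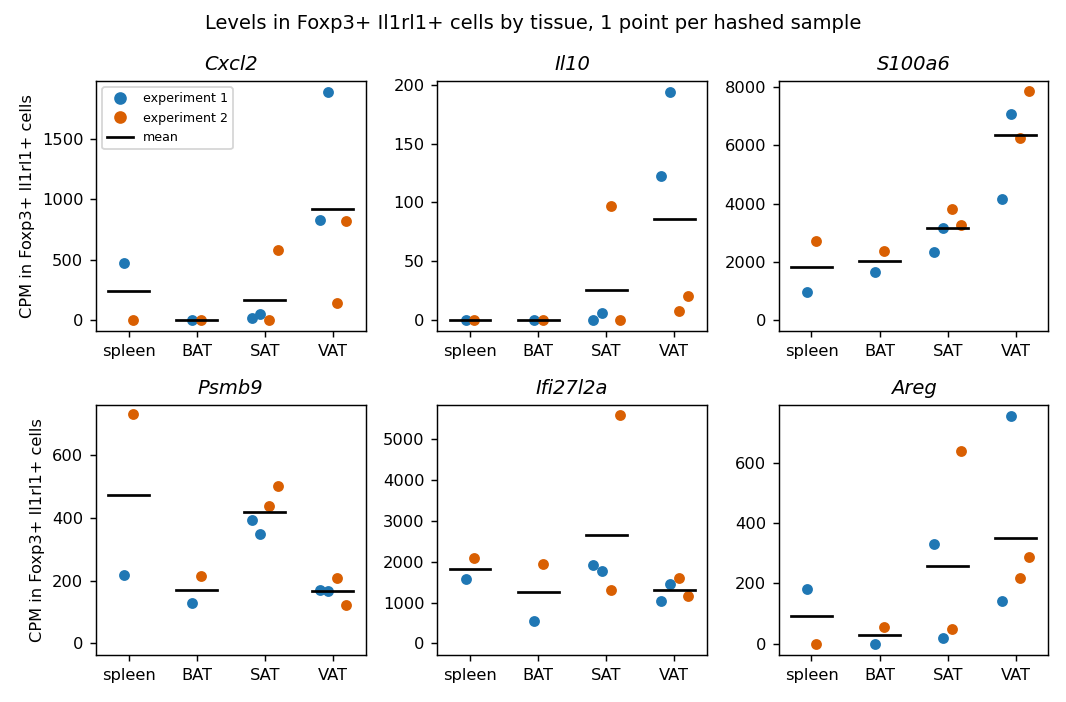
CPM of 6 genes in Foxp3+ Il1rl1+ cells of spleen, BAT, SAT and VAT, 1 point per hashed sample, coloured by experiment, with the mean as a bar. VAT lies above SAT in S100a6 (4164 to 7868 against 2335 to 3826 CPM) and below it in Psmb9 (123 to 208 against 347 to 499 CPM), while Areg ranges widely in both.

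Against spleen, with only 8 cells in 2 hashed samples, 30 genes (0.527%) differed in fat (mean of VAT and SAT), 22 (0.386%) higher and 8 (0.14%) lower. Immediate early and dissociation genes had 9 higher and 0 lower of 17. Fos had 145 and 0 CPM in the spleen sums and 720 to 1889 CPM in those of fat (3.12 ± 0.43), and S100a6, S100a4 and Vim were also higher (1.55 ± 0.24, 1.09 ± 0.23 and 1.95 ± 0.28). Lef1, a factor of naive T cells, was lower (−2.16 ± 0.45), as were Satb1 (−2.23 ± 0.58) and Bcl2 (−3.44 ± 0.85). Only the fat samples were digested, so tissue and preparation cannot be told apart here. The difference between Il1rl1+ and other Foxp3+ cells was itself compared between fat and spleen, and 1 of 9216 genes (0.0109%), Cxcl3, was called by edgeR. DESeq2 called 0, with 140 genes at an unadjusted p of 0.05.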

How the data were processed

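CD4 T cells were measured in 2 droplet libraries (10x 3′ v3) of 8 hashed samples each. The deposited matrices hold raw UMI counts per gene and hashtag, written by Cell Ranger 6.1.0 per the file headers, on mm10 per the submitters' processing notes, which also name bcl2fastq and Seurat. No source used here gives further settings. Gene names are those of the matrices and coordinates those of GENCODE vM21.

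Cells had at least 500 genes, at least 1000 gene UMIs, under 10% mitochondrial UMIs and a Trbc1 or Trbc2 UMI. Hashtags, matched to the labels by number, were called with a mixture of single and pair states at a posterior above 0.95, and cells with several hashtags stayed out of sums per sample. No doublet caller was run within a sample. The 7 unlabelled hashtags were not used.

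UMIs were summed per hashed sample and class (at least 3 cells) and tested with edgeR 4.0.16 in R 4.3.3 for genes with at least 20 UMIs in all, with the hashed sample as a block, which pairs the 2 classes of the same sample, and Benjamini-Hochberg adjustment. Tissue fits had experiment and tissue as terms. The SE given for a gene is the size of its log2 difference divided by the square root of the edgeR F statistic. It thus follows from the test and is no separate estimate of spread. TMM factors came from genes at 200 CPM or more. TMM had been planned without that limit, and the limit was added after simulated data in which unchanged genes had a median log2 estimate of −0.29 with TMM over all genes and −0.03 with the limit. A block-free fit, DESeq2 1.42.0, other scalings, filters and thinning depths were tried. Shares were compared with exact permutation tests within experiments. For shares of Foxp3+ cells, samples with under 10 Foxp3+ cells were left out of the tests. Intervals and limits cover counting error only.

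Members and gene lists were chosen with earlier results of these data known. The rule for naming genes took the marker genes, the 15 highest and 10 lowest called differences of the first comparison with the same sign after thinning in both libraries, up to 5 genes of each list by smallest p, other list genes with their values, and the 6 largest differences in each direction of the other class comparisons. Genes of a list that were at issue only in counts are not all named, and some genes the rule names are not reported here.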

Additional observations from a re-analysis of the deposited data

Results flagged for a closer look

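In 8 of 38 groups of 4 hashed samples tested, 1 sample stood apart from the other 3 by Dixon's criterion. Normally distributed values meet it by chance in about 1 in 20 groups. Shares and levels that rest on few cells and few UMIs need not follow that rate, so 8 of 38 does not show an excess. BAT replicate 2 had the lowest share of Il1rl1+ cells among Foxp3+ cells of its tissue (6.25%, next 13.3%), and SAT replicate 2 the highest of its own (45.2%, next 17.0%). The 17.0% is that of SAT replicate 1, of whose 580 cells stricter hashtag calls kept 68.

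The other 6 were levels in Il1rl1+ Foxp3+ cells. In VAT, Cxcl1 stood at 307 CPM in 1 sample and at 0 in the other 3, and Tnfsf8 at 327 CPM with the next at 9.43. In SAT, Cxcl2 stood at 583 CPM (next 48.7), Ifi27l2a at 5577 CPM (next 1927), Igtp at 439 CPM (next 111) and Il10 at 96.9 CPM (next 6.09).

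The difference of Il1rl1+ from other Foxp3+ cells itself differed between fat and spleen for Cxcl3, by −7.54 log2 units in the edgeR interaction test, on 2 spleen samples and 9 Il1rl1+ Foxp3+ cells with Cxcl3 UMIs.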

How the results depend on the processing

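Of the genes named from the first comparison, DESeq2 gave a positive sign to 11 that edgeR called lower, most of them genes of 1 or a few cells: Col1a1 (1.52), Col1a2 (1.36), Col3a1 (2.29), Cx3cr1 (1.52), Cxcl9 (1.36), Dcn (0.759), Ifi205 (1.33), Lpl (1.22), Plac8 (0.426), Serpinh1 (1.09) and Sparc (0.0177). Birc5 ranged from −0.497 to 3.96 when a library was left out. The count of 258 became 107 and 65 after thinning to 2500 and 1300 UMIs, ranged from 83 to 182 without 1 library, and was 840 in sums per library. Without the replicate block of hashed samples it was 225, 18 of 95 named genes lost their call, and no count of another class comparison moved by more than 1.5 times. Against Il1rl1+ Foxp3-zero cells, the count of 210 became 36 with DESeq2, 88 with edgeR's filterByExpr and 108 after thinning, and ranged from 52 to 77 without 1 library. Cd74 there was 1.75 without cells carrying rare markers of other types and −2.53 to 1.00 without 1 library, and Col3a1 was 0.211 with DESeq2. Against Cxcr3+ cells, the count of 137 became 48 with DESeq2, 79 with filterByExpr and 59 after thinning, and ranged from 53 to 104 without 1 library. DESeq2 gave Cx3cr1 0.137, H2-Aa 1.06, Ifi205 0.146 and Lpl 0.291 there. The interaction of class and fat called 4 genes without cells carrying rare markers and 0 with filterByExpr, after thinning and with DESeq2 (200, 176 and 140 at an unadjusted p of 0.05). Between VAT and SAT the count of 31 became 17 without cells carrying rare markers, 2 with filterByExpr, 5 after thinning and 2 with DESeq2. Between fat and spleen the count of 30 became 10, 7 and 15 with filterByExpr, thinning and DESeq2, and Crip1 was −0.118 after thinning. The fat excess in the share of Foxp3+ cells ranged from 15.1 to 19.1 points when 1 hashed sample was left out. It was 10.1 after thinning to 1300 UMIs, without BAT replicates 1, 2 and 3, which had too few Foxp3+ cells. SAT against spleen ranged from 8.15 to 19.2 points, VAT against SAT from 9.72 to 22.2 and SAT against BAT from 1.87 to 13 when 1 sample was left out. With stricter hashtag calls the last 2 were 8.31 and 16.7, and after thinning to 2500 UMIs 5.57 and 5.62 (the 5.62 without BAT replicate 3). After thinning to 1300 UMIs VAT exceeded spleen by 14.1 points and SAT exceeded spleen by 7.39. As a share of CD4 T cells the fat excess was 0.741 and 0.294 points after thinning to 2500 and 1300 UMIs, against 1.44, and ranged from 1.06 to 1.66 points when 1 sample was left out, the last (without spleen replicate 2) at an exact permutation p of 0.0408, and BAT against spleen was 0.140 after thinning, 0.00165 with the highest hashtag of every cell and −0.240 to 0.158 when 1 sample was left out. Where fewer cells, genes or samples entered, fewer genes could be called, and otherwise the cause was not tested. TMM over all genes and the removal of cells with rare markers were chosen after seeing the data. The removal of every cell with any marker of another type was not run, since 138 of 158 Il1rl1+ Foxp3+ cells had such a UMI.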
